A study of Mus musculus with 12 samples.

Results

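Chemokines are small secreted proteins that guide leukocytes by binding receptors coupled to G proteins on the cell surface. A family of atypical receptors binds the same ligands without that signal and removes or presents them. In the lung, homeostatic chemokines such as Cxcl12 and Ccl21a place resident and recirculating cells, while inflammatory ones such as Cxcl1 and Ccl2 are known to be induced in injured tissue. The genes described here are the chemokines and chemokine receptors of the mouse. They were chosen by symbol: protein-coding genes named Ccl, Cxcl, Ccr, Cxcr or Ackr with a number, plus Cx3cl1, Cx3cr1, Xcl1, Pf4 and Ppbp. The rule found 58 of the 23127 genes in the deposited table, namely 37 ligands, 17 signalling receptors and 4 atypical receptors.

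RNA was measured in whole, flash-frozen lungs of 12 C57BL6/J mice in 3 groups of 4. A control group was taken at 0 weeks, and the other groups received L-NAME, an inhibitor of nitric oxide synthase, at 0.5 g/L in drinking water together with a high-fat diet of 60% lipid for 2 or 5 weeks. The series title places these mice in a study of pulmonary vascular remodelling in heart failure with preserved ejection fraction. No label gives the age or sex of the mice. L-NAME and the diet were always given together and the only untreated group stood at 0 weeks, so the effects of drug, diet and elapsed time cannot be told apart. Each library is 1 mouse, since the labels give every library its own mouse number.

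Values are CPM, reads scaled to a common library total, as deposited. Depth worked out from the steps between low values was about 25900000 to 34000000 reads per library. Lung identity was clear from marker genes, with summed alveolar type 2 markers at 18414 to 26929 CPM over the 12 libraries. On the first 3 principal components of all tested genes, 2-week replicate 3, 5-week replicate 3 and control replicate 2 each stood apart from the rest. Control replicate 2 also held 1824 CPM of summed adipocyte markers, against 37.3 to 185 CPM in the other 11 libraries. Of the members, 44 reached the mean of 1 CPM needed for testing (29 ligands, 12 signalling receptors and 3 atypical receptors), and 14 did not. For 4 of the tested members, Ccl2, Ccl3, Ccr3 and Cxcl9, the mean over the groups other than their highest was under 1 CPM, and 5 tested members had at least 1 group mean under 1 CPM.

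**Figure D1:**
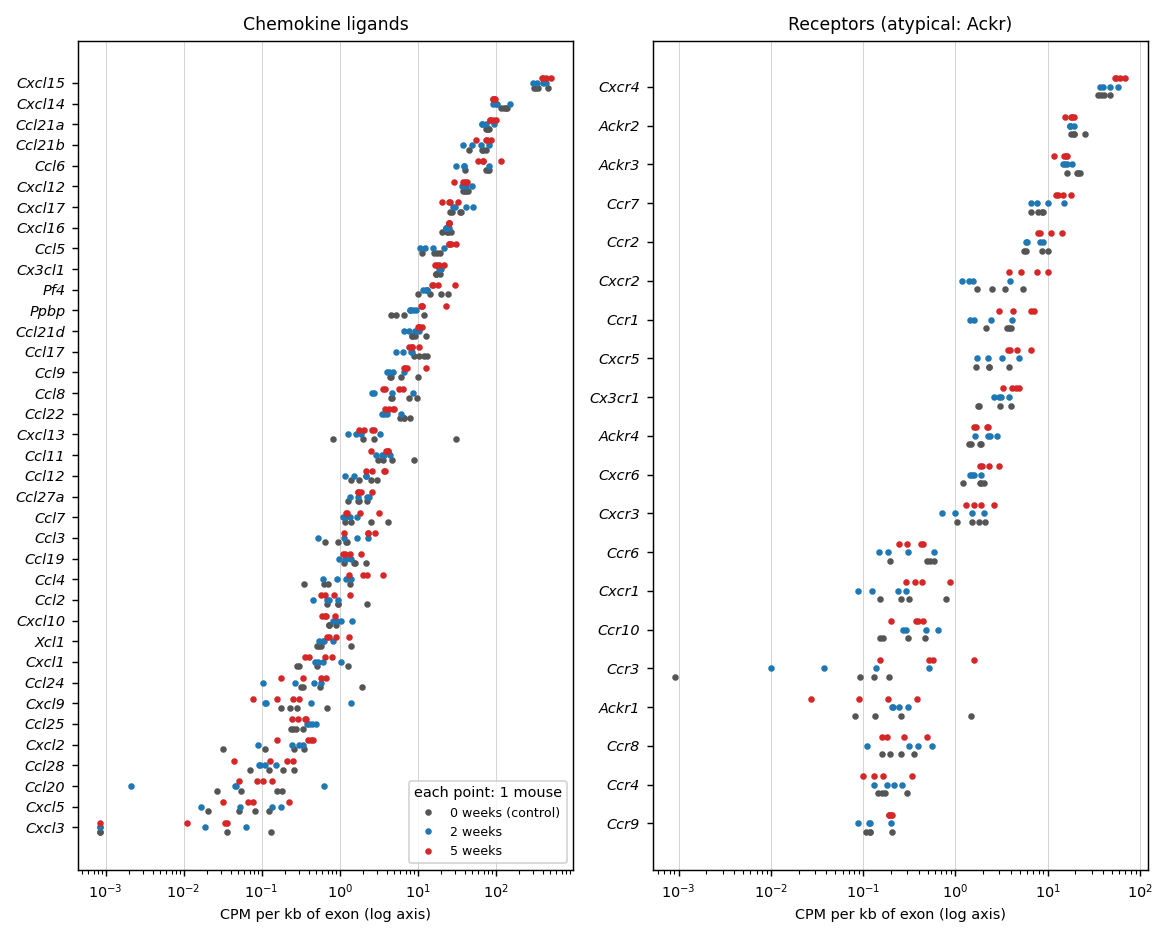
Level of the members in each library, with 1 member not shown, as CPM per kilobase of exon on a log axis, ordered within ligands, signalling receptors and atypical receptors; points are single mice coloured by group, and values under 0.003 CPM are drawn at 0.003 CPM. Cxcl15 leads the ligands at a mean of 391 CPM per kb and Cxcr4 leads the receptors at 48.7 CPM per kb.

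Per kilobase of exon, Cxcl15 (lungkine), a chemokine known from lung epithelium, was the most abundant ligand at 391 CPM per kb over the 12 libraries. Cxcl14, a homeostatic CXC chemokine, followed at 112 CPM per kb, then Ccl21a at 81.6, Ccl21b at 65.7, Ccl6 at 65.2 and Cxcl12 at 40.1 CPM per kb. Cxcr4, the signalling receptor for Cxcl12, led the receptors at 48.7 CPM per kb. The atypical receptors Ackr2, which scavenges inflammatory CC chemokines, and Ackr3, which scavenges Cxcl12, came next at 18.8 and 17.1 CPM per kb, ahead of Ccr7 at 10.8 and Ccr2 at 8.37. The neutrophil-attracting ligands Cxcl1, Cxcl2, Cxcl3 and Cxcl5 had between 0.0274 and 0.603 CPM per kb.

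Those 4 ligands of Cxcr2, which recruit neutrophils in acute inflammation, were low in every group. Cxcl1 had 0.557, 2.40, 0.529 and 0.947 CPM in control replicates 1 to 4, then 0.903, 1.94, 1.15 and 0.996 CPM at 2 weeks and 1.498, 0.754, 1.22 and 0.674 CPM at 5 weeks. The 3 groups overlapped, and the Cxcl1 difference of 5 weeks from 0 weeks was 0.01 ± 0.25 (log2, SE). Cxcl2, a second Cxcr2 ligand, had 0.0656, 0.724, 0.227 and 0.536 CPM in the controls, 0.187, 0.691, 0.512 and 0.631 CPM at 2 weeks and 0.807, 0.897, 0.937 and 0.322 CPM at 5 weeks, below the level needed for testing. Cxcl3 had no reads in 5 of the 12 libraries and a mean of 0.0958 CPM, while Cxcl5 averaged 0.165 CPM. In these libraries 3 reads correspond to 0.088 to 0.116 CPM, so differences at the level of Cxcl3 were not detectable at this depth. The promoters of Cxcl1, Cxcl2 and Cxcl3 are shown because the genes of this inducible group share a kappaB element in the same stretch and all had low levels here. Each line gives the 250 bases before the RefSeq start (GRCm38.p6), 5′ to 3′ on the gene's strand, with matches to a kappaB consensus (GGG, any 2 bases, then TTTCC) on either strand in capitals. The intervals are chr5:90890995-90891244 on the plus strand for Cxcl1, chr5:90903649-90903898 on the plus strand for Cxcl2 and chr5:90785851-90786100 on the plus strand for Cxcl3.
Cxcl1: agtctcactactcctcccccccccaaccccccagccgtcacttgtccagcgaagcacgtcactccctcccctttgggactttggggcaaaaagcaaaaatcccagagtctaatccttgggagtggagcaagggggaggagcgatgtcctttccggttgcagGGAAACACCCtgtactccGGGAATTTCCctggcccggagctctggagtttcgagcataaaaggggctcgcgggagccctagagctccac
Cxcl2: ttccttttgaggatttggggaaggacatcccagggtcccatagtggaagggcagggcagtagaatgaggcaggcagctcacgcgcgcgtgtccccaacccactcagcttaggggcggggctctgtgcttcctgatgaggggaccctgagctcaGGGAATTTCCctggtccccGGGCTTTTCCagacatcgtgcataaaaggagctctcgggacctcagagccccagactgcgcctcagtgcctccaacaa
Cxcl3: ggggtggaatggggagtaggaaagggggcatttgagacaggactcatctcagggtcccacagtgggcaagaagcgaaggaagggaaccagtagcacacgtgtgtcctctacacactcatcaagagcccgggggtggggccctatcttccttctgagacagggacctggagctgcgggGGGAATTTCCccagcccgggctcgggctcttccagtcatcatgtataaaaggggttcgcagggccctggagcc
The matches begin 89 and 71 bases before the start in Cxcl1, 97 and 78 bases in Cxcl2, and 73 bases in Cxcl3. RefSeq windows were found for 45 of the 58 members. The kappaB letters occurred in 12.2% of the 49 member windows (genes Ccl20, Ccl9, Ccr3, Cxcl1, Cxcl2 and Cxcl3) and in 1.41% of all 32851 windows. A match is a match of letters and not evidence of binding.

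Across all members, no difference passed the adjusted threshold in any of the 3 comparisons. limma with Benjamini-Hochberg adjustment over 15562 tested genes called 0 members and 0 genes (0% of the genes tested) at an adjusted p under 0.05 for 2 weeks against 0 weeks, for 5 weeks against 0 weeks and for 5 weeks against 2 weeks. Without adjustment, 5 of 44 members had a p under 0.05 at 2 weeks against 0 weeks, where 9.24% of all tested genes did. Of these, 2 were higher (5.72% of all genes) and 3 lower (3.52% of all genes). At 5 weeks against 0 weeks the count was 12 of 44, or 27.3%, against 8.63% of all genes, with 9 higher (5.84% of all genes) and 3 lower (2.79%). At 5 weeks against 2 weeks it was 19 of 44, or 43.2%, against 10.9% of all genes, with 16 higher (6.18% of all genes) and 3 lower (4.72%). Counted by groups that do not overlap, the 2-week comparison had 1 member above the controls (3.37% of all genes) and 1 below (1.95%), 5.32% of all genes in either direction. At 5 weeks against 0 weeks 4 members lay above (3.65% of all genes) and 3 below (1.36%), 5.01% of all genes together. At 5 weeks against 2 weeks 4 members lay above (2.38% of all genes) and 1 below (2.56%), 4.94% of all genes together. The latter 2 comparisons share the 5-week libraries, so their counts are not independent of each other. The median log2 difference of the tested members was -0.09, 0.15 and 0.26 in the 3 comparisons, and that of all tested genes was 0.02, 0.02 and 0.00073. Without the 4 members that reached 1 CPM only with their highest group, 5, 10 and 18 of 40 had an unadjusted p under 0.05 in the 3 comparisons. In whole lung, fewer cells of a type and less RNA per cell cannot be told apart.

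The count at 5 weeks against 2 weeks depends on which libraries are kept. Without 2-week replicate 4, 7 members passed the adjusted threshold at 5 weeks against 2 weeks (limma, adjusted p from 0.0169 to 0.0499), as did 386 genes, or 2.48% of those tested. These members were Ccl5, Cxcr2, Ccr7, Ccr1, Ccl21a, Cxcr4 and Ccl6, all higher at 5 weeks. With 5-week replicate 3 left out instead, 8 of 43 members (18.6%) had an unadjusted p under 0.05 in that comparison, where 11.3% of all genes did. Without the 3 libraries that stand apart, 6 of 40 members (15%) did, against 7.48% of all genes. The count at 5 weeks against 0 weeks moved less. It was 10 of 43 (23.3%) without 5-week replicate 3, against 5.79% of all genes. Without the 3 libraries it was 12 of 40 (30%), against 5.68% of all genes.

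**Figure D2:**
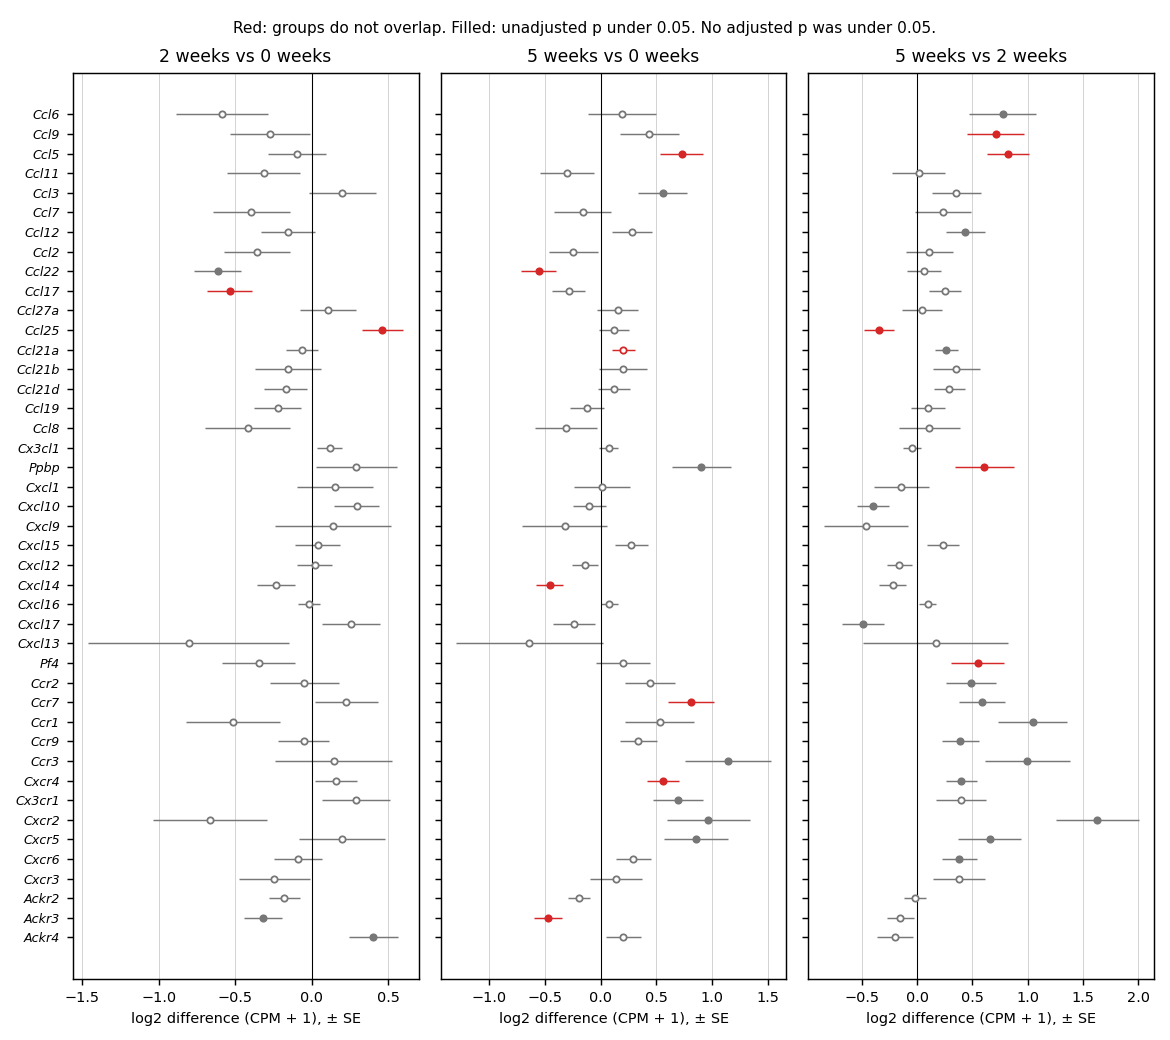
Log2 difference with standard error for the tested members, with 1 not shown, in the 3 comparisons, on the log2(CPM + 1) scale; filled symbols have an unadjusted p under 0.05, red marks groups that do not overlap, and no member passes the adjusted threshold. The signalling receptors drawn lie above 0 in both comparisons that involve 5 weeks, with Cxcr2 at 0.97 against 0 weeks and 1.63 against 2 weeks. Ccr3 is drawn too, but was tested only because of its 5-week level.

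The ligands of CCR4, the receptor of skin-homing and type 2 helper T cells, had lower means in both treated groups than in the controls, and neither passed the adjusted threshold. Ccl22, made chiefly by dendritic cells and macrophages, had 18.4, 13.6, 15.4 and 15.5 CPM in the controls, 8.10, 8.62, 9.37 and 14.4 CPM at 2 weeks and 9.95, 11.1, 8.93 and 11.6 CPM at 5 weeks. Each 5-week library lay below each control, while 2-week replicate 4 lay within the control range. The Ccl22 log2 difference was -0.61 ± 0.15 (SE) at 2 weeks (limma adjusted p = 0.244) and -0.55 ± 0.15 at 5 weeks (adjusted p = 0.497). Ccl17, the other CCR4 ligand, had 6.26, 4.65, 6.72 and 5.33 CPM in the controls, 2.74, 4.24, 3.29 and 4.38 CPM at 2 weeks and 3.96, 4.34, 5.40 and 4.39 CPM at 5 weeks. All 2-week libraries lay below all controls for Ccl17, and the 5-week libraries overlapped the controls. The Ccl17 difference was -0.54 ± 0.15 at 2 weeks (adjusted p = 0.307) and -0.28 ± 0.15 at 5 weeks, where the unadjusted limma p was 0.0777 and the adjusted p 0.621. In the deposited table these genes are neighbours on chromosome 8, Ccl22 at 95472218 to 95478327 and Ccl17 at 95537081 to 95538664, both on the plus strand, in a build the table does not name. Ccr4, their receptor, averaged 0.594 CPM and was not tested.

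Markers of the cells that make these ligands did not move together. Summed dendritic cell markers were 885 to 1034 CPM in the controls, 748 to 1048 CPM at 2 weeks and 1022 to 1290 CPM at 5 weeks. Most of that sum came from the MHC class II genes H2-Aa and H2-Ab1, which B cells also carry, at 735 to 895 CPM in the controls and 885 to 1173 CPM at 5 weeks. These were the 2 of 8 markers that were higher at 5 weeks against 0 weeks by an unadjusted p under 0.05, and Fscn1, a marker of mature dendritic cells, was the 1 that was lower, at 30.4 to 38.8 CPM in the controls and 22.9 to 32.4 CPM at 5 weeks. Without the class II genes, the other 6 markers summed to 139 to 150.4 CPM in the controls, 122 to 139 CPM at 2 weeks and 117 to 151 CPM at 5 weeks, which overlapped. Per 100 CPM of those 6, Ccl22 was 9.35 to 13.2 CPM in the controls, 6.38 to 10.4 CPM at 2 weeks and 7.26 to 7.79 CPM at 5 weeks, so the 5-week mice lay below every control and within the 2-week range. Ccl17 on the same scale was 3.19 to 4.49 CPM in the controls, 2.25 to 3.16 CPM at 2 weeks and 2.89 to 4.60 CPM at 5 weeks, so the 5-week mice overlapped the controls. Per 100 CPM of all 8 markers, Ccl17 was 0.456 to 0.759 in the controls, 0.367 to 0.528 at 2 weeks and 0.351 to 0.419 at 5 weeks, and there the 5-week mice lay below every control, so that separation depends on the class II genes. Interstitial macrophage markers were lower at 2 weeks, with 8 of 8 negative and 6 of them with an unadjusted p under 0.05, and 7 of 8 were negative at 5 weeks. Their sum was 918 to 1544 CPM in the controls, 775 to 894 CPM at 2 weeks and 870.1 to 1069 CPM at 5 weeks. Per 100 CPM of it, Ccl22 and Ccl17 each overlapped between all groups. Ccl22 was 0.883 to 1.68 in the controls and 0.835 to 1.27 at 5 weeks, and Ccl17 was 0.301 to 0.693 and 0.434 to 0.505. Controls and 5-week mice overlapped only through control replicate 2, which had the highest sum, and the other controls lay above every 5-week mouse for both genes. The part of these cells in the lower Ccl22 and Ccl17 was not tested.

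Ccl25, a ligand of Ccr9 best known from thymus and gut, was the member with the clearest high 2-week group, at a low level. It had 1.90, 2.06, 1.78 and 2.56 CPM in the controls, 3.30, 2.86, 3.68 and 3.05 CPM at 2 weeks and 2.65, 2.15, 2.78 and 1.82 CPM at 5 weeks. All 2-week libraries lay above all control and all 5-week libraries. The Ccl25 log2 difference was 0.46 ± 0.13 for 2 weeks against 0 weeks (limma adjusted p = 0.338) and -0.34 ± 0.13 for 5 weeks against 2 weeks (adjusted p = 0.375).

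The ligand with the clearest high 5-week group was Ccl5 (RANTES), which attracts T cells, natural killer (NK) cells and monocytes through receptors that include Ccr1 and Ccr3. Ccl5 had 18.3, 15.7, 11.03 and 16.9 CPM in the controls, 12.1, 10.4, 15.2 and 21.1 CPM at 2 weeks and 24.1, 25.3, 29.7 and 24.5 CPM at 5 weeks. It was the 1 tested member whose 5-week libraries lay above all control and all 2-week libraries. The difference was 0.73 ± 0.19 (log2, SE) against 0 weeks (limma adjusted p = 0.452) and 0.82 ± 0.19 against 2 weeks (adjusted p = 0.283), with an exact permutation p of 0.0286 in each, the smallest that 4 against 4 allows. Ccl5 is itself a product of NK and T cells, and summed NK markers stood at 29.8 to 53.8 CPM in the controls and 59.2 to 98.4 CPM at 5 weeks. Per 100 CPM of NK markers, Ccl5 was 34.1 to 40.5 in the controls, 29.5 to 41.9 at 2 weeks and 30.2 to 40.8 at 5 weeks, so the groups overlapped on that scale. Per 100 CPM of T cell markers, Ccl5 was 41.3 to 49.5 in the controls, 39.0 to 54.6 at 2 weeks and 49.0 to 66.7 at 5 weeks. On the T cell scale the 5-week and control ranges overlapped only slightly, with medians of 59.6 and 45.4. The part of cell numbers in this and the other differences set beside marker sums was not tested.

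Ccl9 and Ccl6, myeloid ligands of Ccr1, were higher at 5 weeks than at 2 weeks on average. Ccl9 had 18.4, 30.9, 13.3 and 13.9 CPM in the controls, 12.9, 14.8, 12.3 and 20.1 CPM at 2 weeks and 21.1, 20.3, 39.3 and 22.2 CPM at 5 weeks. The 5-week libraries lay just above the highest 2-week library, and the difference was 0.71 ± 0.26 (limma adjusted p = 0.349). Ccl6 had 136, 146, 72.1 and 143 CPM in the controls, 69.7, 69.6, 55.8 and 146 CPM at 2 weeks and 124, 124, 210.2 and 107 CPM at 5 weeks. Its groups overlapped, with a log2 difference of 5 weeks from 2 weeks of 0.77 ± 0.30 (adjusted p = 0.371). Alveolar macrophage markers were low in the same libraries as Ccl6, with a sum of 253 CPM in control replicate 3 against 559 to 662 CPM in the other controls, and 220 to 287 CPM in 2-week replicates 1 to 3 against 671 CPM in replicate 4. At 5 weeks the sum was 533 to 714 CPM, and per 100 CPM of these markers Ccl6 overlapped between all groups. Against 0 weeks, the Ccl6 difference was 0.19 ± 0.30 and turned to -0.05 without control replicate 3 and to -0.02 without 5-week replicate 3.

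The platelet chemokines Ppbp and Pf4 were both highest in 5-week replicate 3. Ppbp, stored in platelet granules, had 13.2, 5.79, 7.33 and 4.99 CPM in the controls, 9.44, 8.62, 10.3 and 8.53 CPM at 2 weeks and 12.2, 11.8, 25.2 and 12.2 CPM at 5 weeks. Pf4 had 14.5, 17.9, 10.4 and 7.32 CPM in the controls, 9.62, 8.36, 9.24 and 9.43 CPM at 2 weeks and 13.3, 11.4, 22.0 and 10.9 CPM at 5 weeks. All 5-week libraries lay above all 2-week libraries for both genes, by small gaps apart from replicate 3. The differences of 5 weeks from 2 weeks were 0.61 ± 0.26 for Ppbp and 0.55 ± 0.24 for Pf4 (limma adjusted p = 0.434 and 0.436), and without 5-week replicate 3 they were 0.36 and 0.34. Summed platelet markers were 43.3 to 45.7 CPM at 2 weeks and 47.3 to 77.7 CPM at 5 weeks, and per 100 CPM of them the Ppbp groups overlapped. Red cell markers were highest in the same library, at 5187 CPM in 5-week replicate 3, against 412 to 1585 CPM in the other 11 libraries.

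Cxcl14, expressed by stromal and epithelial cells, was lower at 5 weeks. It had 254, 213, 233 and 248 CPM in the controls, 168, 188, 186 and 276 CPM at 2 weeks and 177, 171, 172 and 169 CPM at 5 weeks. The 5-week mice were close together and below every control, while 2-week replicate 4 exceeded every control. The log2 difference from 0 weeks was -0.45 ± 0.12 at 5 weeks (limma adjusted p = 0.463) and -0.23 ± 0.12 at 2 weeks (adjusted p = 0.578). Summed fibroblast markers were 1377 to 1831 CPM in the controls and 1112 to 1557 CPM at 5 weeks. Per 100 CPM of them, Cxcl14 had medians of 16.7 in the controls and 13.4 at 5 weeks, and these groups overlapped. The overlap came only through control replicate 2, which had the highest sum and stood at 11.6 on that scale. The other controls lay above every 5-week mouse, the highest of which stood at 15.5.

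Other abundant ligands had overlapping groups. Cxcl15 had 1000.2, 732, 651 and 706 CPM in the controls, 950.0, 730.0, 641 and 848 CPM at 2 weeks and 927, 860.3, 1081.3 and 843 CPM at 5 weeks. Cxcl12, which retains leukocytes and guides endothelial cells, averaged 336 ± 19.7 CPM (SD, n = 4) at 0 weeks, 342 ± 45.0 CPM at 2 weeks and 307 ± 46.7 CPM at 5 weeks. Both genes overlapped between all groups, with log2 differences from 0 weeks to 5 weeks of 0.28 ± 0.15 and -0.14 ± 0.11. Cxcl16, a transmembrane ligand of Cxcr6, had group means of 72.2, 71.2 and 76.0 CPM, and Cx3cl1 (fractalkine) had 69.8, 75.7 and 73.8 CPM.

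The lymphoid ligands of Ccr7 and Cxcr5 need care in reading. Ccl21a had 72.5, 66.8, 64.6 and 69.4 CPM in the controls, 65.0, 58.1, 58.4 and 82.2 CPM at 2 weeks and 73.0, 74.6, 88.3 and 79.6 CPM at 5 weeks. The lowest 5-week library stood above the highest control by less than 1 CPM, with a log2 difference of 0.20 ± 0.10 (limma adjusted p = 0.617). Ccl21a shares 71.6% of its 50-base stretches with other genes, Ccl21b 100% and Ccl21d 97.1%, so reads could be split among these near-identical copies and each value is uncertain. Summed over the 3 copies, the level was 103 ± 6.14 CPM at 0 weeks, 97.0 ± 19.8 CPM at 2 weeks and 118 ± 10.4 CPM at 5 weeks (SD, n = 4), and the 5-week and control ranges overlapped. Ccl19, the other Ccr7 ligand, shares 52% of its stretches and averaged 1.21 CPM. Cxcl13, the B cell attractant, had 3.21, 35.5, 0.944 and 2.30 CPM in the controls, 2.15, 1.48, 1.86 and 3.75 CPM at 2 weeks and 2.04, 3.02, 3.15 and 2.34 CPM at 5 weeks. Control replicate 2 set the control mean of 10.5 CPM, and without it the Cxcl13 difference turned from -0.81 to 0.10 at 2 weeks and from -0.64 to 0.27 at 5 weeks.

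Other inflammatory ligands were low in all groups. Ccl2, the monocyte attractant, had 1.08, 2.55, 1.095 and 0.789 CPM in the controls, 1.09, 0.790, 0.512 and 0.830 CPM at 2 weeks and 0.960, 0.646, 1.53 and 0.732 CPM at 5 weeks, with overlapping groups. The interferon-inducible Cxcl10 had 1.64, 2.02, 1.66 and 1.64 CPM in the controls, 2.06, 1.88, 2.37 and 3.29 CPM at 2 weeks and 1.96, 1.47, 1.499 and 1.32 CPM at 5 weeks. Its 2-week mean was the highest, and the difference of 5 weeks from 2 weeks was -0.40 ± 0.15 (limma adjusted p = 0.350). The Cxcl10 promoter (GRCm38.p6, chr5:92348890-92349139, minus strand) is shown because it carries the interferon response letters (GAAA, any 2 bases, then GAAA, searched on both strands), in capitals, beginning 213 bases before the start.
Cxcl10: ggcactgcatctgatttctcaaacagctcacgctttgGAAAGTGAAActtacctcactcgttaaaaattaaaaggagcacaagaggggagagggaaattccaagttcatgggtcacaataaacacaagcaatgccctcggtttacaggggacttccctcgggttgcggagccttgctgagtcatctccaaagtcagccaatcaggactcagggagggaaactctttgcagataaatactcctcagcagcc
These letters occurred in 6.12% of the 49 member windows (Ccl19, Cxcl10 and Cxcl14) and in 2.98% of all windows. Cxcl9, a related interferon-inducible ligand of Cxcr3, averaged 1.03, 1.56 and 0.590 CPM in the 3 groups, and 2-week replicate 4 alone had 4.25 CPM.

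**Figure D3:**
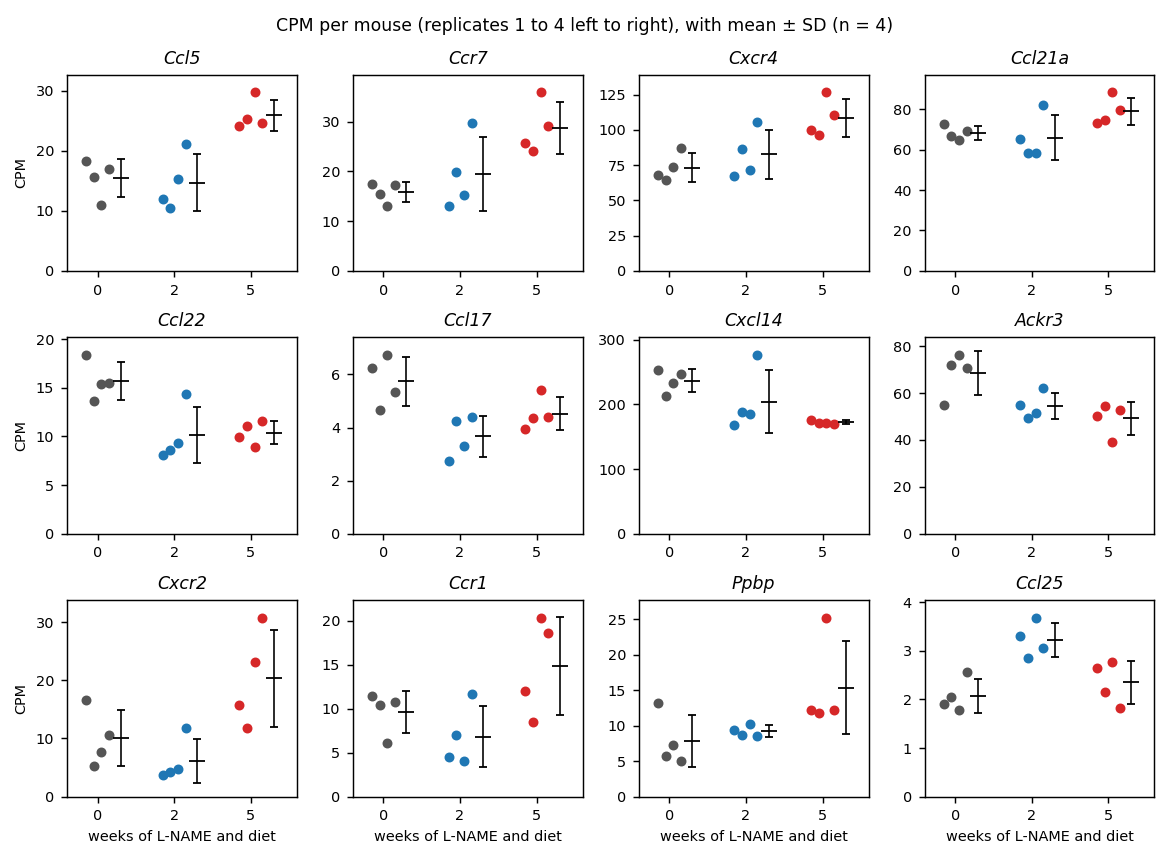
CPM in each mouse for the members with the clearest group differences, replicates 1 to 4 from left to right within each group, with the mean and SD of each group (n = 4) beside the points; each vertical axis starts at 0. Ccl5, Ccr7 and Cxcr4 sit higher at 5 weeks than in every control, and Ccl22, Cxcl14 and Ackr3 sit lower, Ackr3 by a hair.

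Signalling receptors tended to have their highest means at 5 weeks. Ccr3 is left out of the counts that follow, because its 5-week level alone carried it over the filter. Of the other 11 tested receptors, all 11 had a positive log2 difference at 5 weeks against 0 weeks, with a median of 0.53, and all 11 did at 5 weeks against 2 weeks, with a median of 0.40. Positive differences were seen for 55.0% and 50.2% of all tested genes, and both comparisons use the same 5-week mice. An unadjusted p under 0.05 was reached by 5 and 8 of the 11, each of them higher, against 5.84% and 6.18% of all genes in that direction, and by 0 of 11 at 2 weeks against 0 weeks. With no filter on low values and Ccr3 counted, 15 of 17 receptors were positive against 0 weeks and 14 of 17 against 2 weeks. Without the 3 libraries that stand apart, 11 of 11 were positive in each comparison. An unadjusted p under 0.05 was then reached by 4 and 1 of the 11, where 5.68% and 7.48% of all genes did in either direction. No receptor passed the adjusted threshold. Red cell markers, a sign of blood in the tissue, were also higher on average at 5 weeks: their sum was 447 to 911 CPM in the controls, 412 to 875 CPM at 2 weeks and 532 to 5187 CPM at 5 weeks, and 4 of 4 tested were higher at 5 weeks against 0 weeks by an unadjusted p under 0.05. The part of blood content in the receptor differences was not tested.

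Cxcr4, which holds neutrophils and B cells in their niches, had 68.1, 64.1, 73.9 and 87.0 CPM in the controls, 67.1, 86.3, 71.6 and 106 CPM at 2 weeks and 99.9, 96.5, 127 and 110.4 CPM at 5 weeks. Every 5-week mouse lay above every control. The log2 difference was 0.56 ± 0.14 (limma adjusted p = 0.379). Ccr7, which directs T cells, B cells and mature dendritic cells to lymphoid tissue, had 17.5, 15.5, 13.1 and 17.2 CPM in the controls, 13.02, 19.8, 15.3 and 29.8 CPM at 2 weeks and 25.7, 24.1, 35.9 and 29.1 CPM at 5 weeks. These 5-week libraries also stood clear of the controls, with a difference of 0.81 ± 0.21 (adjusted p = 0.393), while 2-week replicate 4 reached the 5-week range. Cxcr5, the receptor of Cxcl13 on B cells, had 7.80, 12.7, 5.59 and 7.67 CPM in the controls, 5.76, 10.8, 7.55 and 16.5 CPM at 2 weeks and 12.6, 15.7, 22.0 and 13.2 CPM at 5 weeks. Control replicate 2 overlapped the 5-week range of Cxcr5, and the difference was 0.85 ± 0.28 (adjusted p = 0.517).

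Summed B cell markers and these receptors were each highest in replicate 4 of the 2-week group and replicate 3 of the 5-week group. The controls differed: replicate 2 had the highest B cell sum and the highest Cxcr5, but the lowest Cxcr4. The B cell sum was 96.0 to 168 CPM in the controls, 107 to 231 CPM at 2 weeks and 183 to 381 CPM at 5 weeks, and 6 of 7 markers were higher at 5 weeks against 0 weeks by an unadjusted p under 0.05. Per 100 CPM of B cell markers, Cxcr5, Ccr7 and Cxcr4 overlapped between all groups. Summed T cell markers were 25.6 to 44.4 CPM in the controls and 38.0 to 60.6 CPM at 5 weeks, and per 100 CPM of those Ccr7 was 39.5 to 51.1 in the controls, 50.4 to 74.2 at 2 weeks and 59.2 to 71.9 at 5 weeks. On that scale the 5-week mice lay above every control and within the 2-week range.

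Cxcr2, the neutrophil receptor for Cxcl1, Cxcl2 and Ppbp, had the largest log2 difference among the 44 tested members at 5 weeks against 2 weeks. It had 16.6, 5.29, 7.71 and 10.6 CPM in the controls, 3.64, 4.24, 4.70 and 11.8 CPM at 2 weeks and 15.8, 11.702, 23.1 and 30.7 CPM at 5 weeks. The lowest 5-week library was just under 2-week replicate 4, and the other three 2-week mice were well below all of the 5-week mice. The difference was 1.63 ± 0.37 against 2 weeks (limma adjusted p = 0.277) and 0.97 ± 0.37 against 0 weeks (adjusted p = 0.549). The sum of neutrophil markers was 66.4 to 194 CPM in the controls, 46.0 to 152 CPM at 2 weeks and 123 to 356 CPM at 5 weeks, and 7 of 7 tested markers were higher at 5 weeks against 2 weeks by an unadjusted p under 0.05. Of these markers, Ly6g averaged 0.225 CPM and was not tested. Per 100 CPM of neutrophil markers, Cxcr2 stood at 7.97 to 13.1, 7.49 to 8.24 and 6.51 to 10.4 in the 3 groups, which overlapped. Cxcr1, the related receptor, averaged 0.526 CPM.

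**Figure D4:**
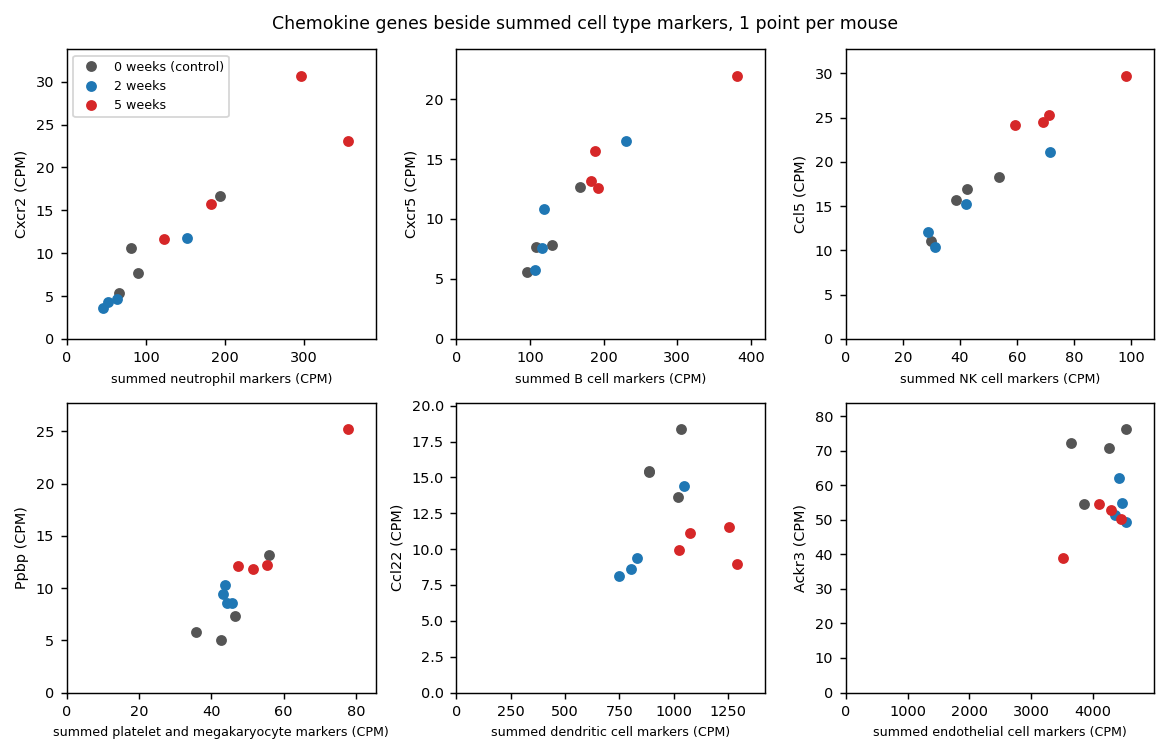
CPM of selected members (vertical) against the summed CPM of a cell type's markers (horizontal) in each of the 12 mice, coloured by group, both axes from 0. Cxcr2 and Ccl5 lie along the neutrophil and NK marker sums in all groups, and Ccl22 at 5 weeks lies below every control, at dendritic cell marker sums of 1022 to 1290 CPM that are mostly H2-Aa and H2-Ab1.

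Receptors of monocytes were higher on average at 5 weeks with wide spread. Ccr2, which brings classical monocytes into tissue, had 68.8, 58.8, 39.7 and 37.6 CPM in the controls, 39.1, 40.3, 55.7 and 60.1 CPM at 2 weeks and 56.3, 52.7, 96.4 and 73.3 CPM at 5 weeks. Cx3cr1, the fractalkine receptor of nonclassical monocytes, had 18.2, 13.7, 8.04 and 7.89 CPM in the controls, 11.8, 13.4, 14.1 and 17.4 CPM at 2 weeks and 20.3, 14.9, 22.1 and 18.7 CPM at 5 weeks. Ccr1, which binds Ccl5, Ccl6 and Ccl9, had 11.4, 10.4, 6.12 and 10.7 CPM in the controls, 4.52, 6.98, 4.06 and 11.65 CPM at 2 weeks and 11.99, 8.44, 20.3 and 18.5 CPM at 5 weeks. Control and 5-week ranges overlapped for these receptors. The differences from 0 weeks were 0.44 ± 0.23, 0.69 ± 0.22 and 0.53 ± 0.31 (limma adjusted p = 0.617, 0.517 and 0.657), and without 5-week replicate 3 the Ccr2 difference was 0.27, and without control replicate 3 that of Ccr1 was 0.35. Ccr1 differed by 1.04 ± 0.31 from 2 weeks (adjusted p = 0.288). Ccr3, the eosinophil receptor, had no reads in 1 control and 5.15 CPM in 5-week replicate 3, and the eosinophil marker Prg2 averaged 0.0919 CPM. Cxcr3, which binds Cxcl9 and Cxcl10 on T and NK cells, averaged 2.81, 2.28 and 3.21 CPM with overlapping groups.

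The 3 tested atypical receptors did not share a direction against 0 weeks. At 5 weeks against 2 weeks all 3 log2 differences were negative, from -0.20 to -0.02, and 0 had an unadjusted p under 0.05. Ackr3, expressed by endothelial and stromal cells, had 54.7, 72.1, 76.1 and 70.7 CPM in the controls, 54.8, 49.5, 51.3 and 62.0 CPM at 2 weeks and 50.3, 54.7, 38.9 and 52.8 CPM at 5 weeks. The highest 5-week library, at 54.67 CPM, lay below control replicate 1, at 54.69 CPM, by a hair, and the other controls were well above both. The log2 difference was -0.32 ± 0.12 at 2 weeks (limma adjusted p = 0.462) and -0.47 ± 0.12 at 5 weeks (adjusted p = 0.452). Summed endothelial markers were 3648 to 4539 CPM in the controls, 4351 to 4535 CPM at 2 weeks and 3513 to 4448 CPM at 5 weeks. Ackr3 per 100 CPM of them was 1.42 to 1.98 in the controls, 1.09 to 1.40 at 2 weeks and 1.11 to 1.34 at 5 weeks. On that scale both treated groups lay below all controls, the 2-week group narrowly. In plain CPM the 2-week mice overlapped the controls. Ackr2 averaged 64.1, 56.2 and 55.7 CPM with overlapping groups. Ackr4, which scavenges Ccl19, Ccl21a and Ccl25, had 7.58, 7.95, 10.2 and 9.86 CPM in the controls and 8.83, 12.8, 12.1 and 15.1 CPM at 2 weeks, a difference of 0.40 ± 0.16 (adjusted p = 0.477) with overlap. At 5 weeks Ackr4 had 9.10, 8.57, 12.07 and 12.01 CPM, with a difference of 0.21 ± 0.16 from the controls (adjusted p = 0.718).

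**Figure D5:**
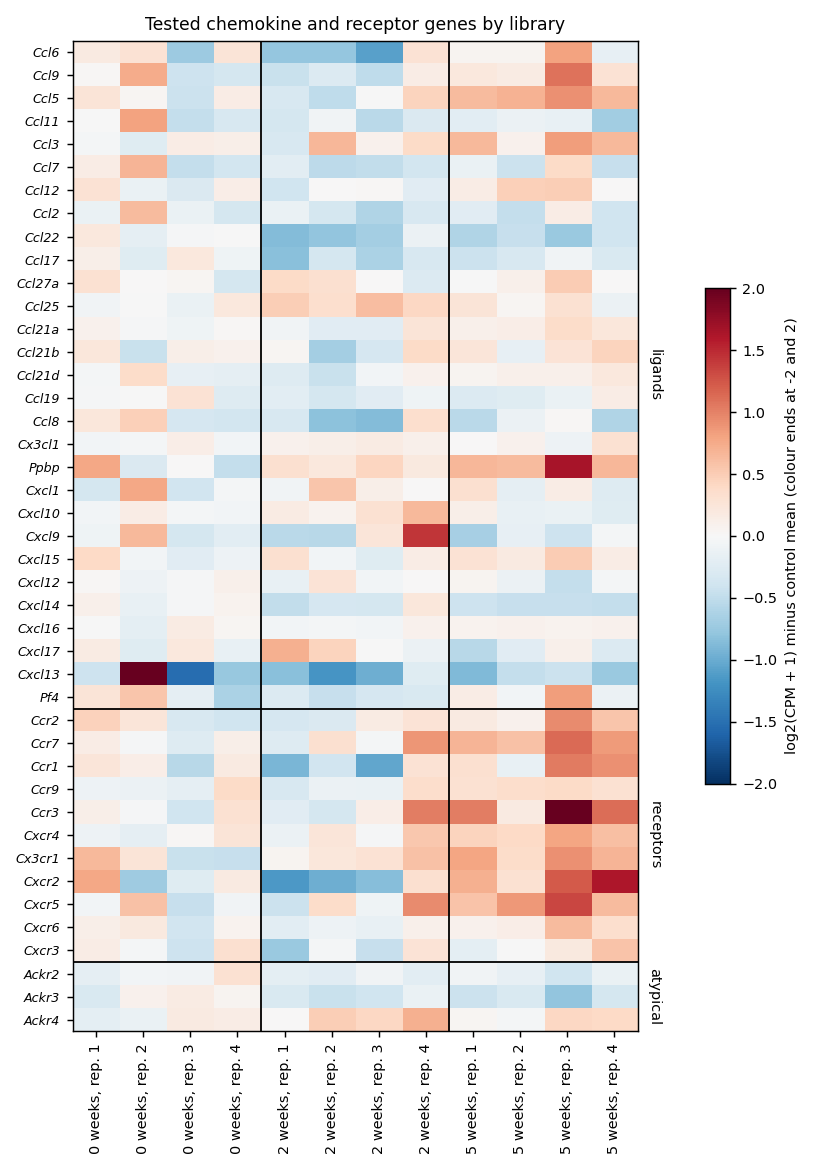
Difference of the tested members, with 1 not shown, from their control means on the log2(CPM + 1) scale in each of the 12 libraries, as a colour map that ends at -2 and 2, with members in rows by role and libraries in columns by group. Receptor rows are mostly above the control mean in the 5-week columns, and 2-week replicate 4 is the highest 2-week library for Cxcr2, Ccr7 and Cxcr5.

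The remaining members, singled out after their values were seen, complete the family. Cxcl17, a mucosal chemokine, had 26.3, 19.6, 27.3 and 21.01 CPM in the controls, 38.9, 32.1, 23.1 and 21.3 CPM at 2 weeks and 15.6, 19.9, 25.2 and 19.2 CPM at 5 weeks. Its groups overlapped, with a difference of 5 weeks from 2 weeks of -0.49 ± 0.19 (limma adjusted p = 0.365). Ccl3, an attractant of monocytes and T cells, averaged 0.769, 1.09 and 1.64 CPM in the 3 groups, and its relative Ccl4 averaged 0.501, 0.683 and 1.51 CPM. The CCR2 ligand Ccl12 averaged 1.18, 0.947 and 1.64 CPM, and Ccl7 averaged 1.85, 1.06 and 1.49 CPM. Cxcr6, which binds Cxcl16, averaged 3.40, 3.11 and 4.39 CPM, and Ccr9, which binds Ccl25, averaged 1.41, 1.33 and 2.02 CPM. The control range overlapped the 5-week range in each of these genes. By an unadjusted limma p under 0.05, Ccl12, Cxcr6 and Ccr9 were higher at 5 weeks against 2 weeks, as were 6.18% of all genes. Ccl3, which reached 1 CPM only with its 5-week group, was higher at 5 weeks against 0 weeks, as were 5.84% of all genes. None passed the adjusted threshold. Ccl8, Ccl11 and Ccl27a had no unadjusted p under 0.05 in any comparison, and Ccl27a shares 45% of its stretches with other genes. The 14 members below the level for testing, with means of 0.096 to 0.899 CPM, were Ccl4, Ccl20, Ccl24, Ccl28, Xcl1, Cxcl2, Cxcl3, Cxcl5, Ccr4, Ccr6, Ccr8, Ccr10, Cxcr1 and Ackr1.

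Genes that act downstream of chemokine receptors, from a list of G proteins, kinases, regulators and integrins, were counted in the same way. Of 33 tested, 2 were higher and 3 lower at 2 weeks against 0 weeks by an unadjusted p under 0.05, where 5.72% and 3.52% of all genes were. At 5 weeks against 0 weeks 13 were higher and 0 lower, against 5.84% and 2.79% of all genes, and at 5 weeks against 2 weeks 18 were higher and 0 lower, against 6.18% and 4.72%. Positive differences numbered 8, 25 and 29 of 33, none passed the adjusted threshold, and the medians were -0.08, 0.22 and 0.20 (log2). Lyn, a Src-family kinase of leukocytes, was at 132 ± 4.56 CPM at 5 weeks and 113 ± 7.01 CPM at 0 weeks (SD, n = 4), a difference of 0.22 ± 0.07 (limma adjusted p = 0.518). Itgal, the alpha chain of the integrin LFA-1, was at 68.4 ± 4.64 CPM at 5 weeks and 35.6 ± 16.4 CPM at 2 weeks, a difference of 1.01 ± 0.24 (adjusted p = 0.288). Of 11 tested receptors for other leukocyte attractants, by an unadjusted p under 0.05, 0 were higher and 2 lower at 2 weeks against 0 weeks, 2 higher and 2 lower at 5 weeks against 0 weeks, and 5 higher and 0 lower at 5 weeks against 2 weeks, beside the same shares of all genes. Those named by the rule in the last comparison include the complement receptor C5ar1 at 22.9 ± 3.08 against 11.6 ± 6.03 CPM and the formyl peptide receptor Fpr1 at 13.8 ± 2.93 against 6.75 ± 6.48 CPM.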

How the data were processed

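The authors deposited 1 table of 12 whole-lung libraries with values in CPM and 0.0001 added to every cell. Its positions mostly differ from those of GRCm38 genes, and the table names no build. TopHat2, Partek and mm10 are listed in the submitters' processing notes. Versions, annotation and strandedness were not stated, so genes overlapping an antisense partner cannot be told apart. Depth was estimated from the steps of low CPM values; 87.7 to 88.4% of values fell within 0.1 of a whole read, too few for a count test.

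Genes averaging 1 CPM or more across libraries were tested on log2(CPM + 1), a scale that understates the change of low genes, with limma 3.58.1 in R 4.3.3 (empirical Bayes with trend, all 3 groups in 1 fit, two-sided) and Benjamini-Hochberg adjustment over all tested genes at 0.05. An exact two-sided permutation test of 4 against 4 libraries cannot go below 0.0286; adjusted over all genes it gave no value below 0.537. The script was tested on simulated data.

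Members, gene lists and marker lists were chosen with earlier results of these data known. Members are named where they are past the threshold, among the 5 smallest p in a comparison, without overlap between groups, among the 5 highest ligands or receptors, or in a preset ligand and receptor pair; of the downstream lists, the 3 smallest p. Only some of those 3 are described. The counts without members that reach 1 CPM through 1 group, the values of Ccr3, Cxcl3, Cxcl5, Cxcr1, Ccl21b and Ccl21d, the ratios to marker sums, the promoter motifs, the counts of groups without overlap and the 3 libraries left out together were chosen after values were seen. Alternatives covered the pseudocount, filter, scaling, library weights, variance moderation, samples in the fit and each library left out. Promoter windows come from RefSeq, and shared 50-base stretches from the GENCODE M21 transcripts. Values of 1 member and 1 downstream gene are not reported here, though counts and medians include them. The single-cell part of the series is not analysed here.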

Additional observations from a re-analysis of the deposited data

Results flagged for a closer look

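Among the 33 named members, each group of 4 mice was searched for a single value far from the other 3 by Dixon's test, which chance flags in about 1 in 20 groups. Of 99 groups, 11 held such a value. Control replicate 2 had 35.5 CPM of Cxcl13, where the other controls had 0.944 to 3.21 CPM, and 2.02 CPM of Cxcl10, where they had 1.64 to 1.66 CPM. Control replicate 3 had 72.1 CPM of Ccl6, where the other controls had 136 to 146 CPM, and 76.9 CPM of Cx3cl1, where they had 66.9 to 68.0 CPM.

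2-week replicate 4 had 11.8 CPM of Cxcr2, where the other 2-week mice had 3.64 to 4.70 CPM. It also had 146 CPM of Ccl6 against 55.8 to 69.7 CPM, and 76.5 CPM of Cxcl16 against 68.9 to 69.96 CPM. Its summed neutrophil markers were 152 CPM and its summed B cell markers 231 CPM, the highest of the 2-week group. 2-week replicate 3 had 60.5 CPM of Ackr2 against 54.3 to 55.2 CPM in its group. 5-week replicate 3 had 25.2 CPM of Ppbp against 11.8 to 12.2 CPM, 39.3 CPM of Ccl9 against 20.3 to 22.2 CPM, and 210.2 CPM of Ccl6 against 107 to 124 CPM. The part of these libraries' cell makeup in these values was not tested.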

How the results depend on the processing

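No paired analysis was possible because the mouse numbers differ between groups and the replicate numbers follow accession order. Depth limits members below 1 CPM, and 4 mice a group limit the power of every comparison. No member passed the adjusted threshold in any setting at 2 weeks or 5 weeks against 0 weeks. At 5 weeks against 2 weeks, library weights gave 6 members and 881 genes (5.66% of those tested) past the threshold. Of these members, Ccl5, Ccl6, Ccr1, Ccr7 and Cxcr2 were higher and Cxcl17 lower. At 2 weeks against 0 weeks, library weights gave 18 genes past the threshold. There 13 of 44 members (29.5%) had an unadjusted p under 0.05, where 15.8% of all genes did. A filter of 10 CPM left 24 members tested. At 2 weeks against 0 weeks, 3 of the 24 (12.5%) had an unadjusted p under 0.05, where 9.17% of all genes did. In that comparison 0 of the 24 were without overlap, where 5.5% of all genes were. At 5 weeks against 2 weeks, 12 of the 24 (50%) had such a p, where 10.1% of all genes did. Without the 3 libraries that stand apart, 5, 12 and 8 of 40 members had groups without overlap in the 3 comparisons, where 10.1%, 11.8% and 16% of all genes did. With these fewer mice a group, 6 of 40 had an unadjusted p under 0.05 at 5 weeks against 2 weeks, where 7.48% of all genes did. The medians kept their sign in every setting, and a shift in them was judged against the members' median SE.

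Leaving out 1 library at a time, the genes past the threshold ranged from 0 to 24 (without 5-week replicate 3), 0 to 1 (without control replicate 1) and 0 to 386 (without 2-week replicate 4) for 2 against 0, 5 against 0 and 5 against 2 weeks, and the members past it from 0 to 7 in the last. Members with an unadjusted p under 0.05 ranged from 4 to 10 at 2 weeks against 0 weeks and from 8 to 20 at 5 weeks against 2 weeks. At 5 weeks against 0 weeks they ranged from 10 to 15. There 5.79% or 8.17% of all genes had such a p where 10 members did, and 9.19% where 15 did. For 2 weeks against 0 weeks, 6.11% to 7.16% of all genes had such a p where 4 members did. Where 10 members did, without 2-week replicate 4, the share was 14.7%. For 5 weeks against 2 weeks, the share was 11.3% where 8 members did, and 10.2% or 11.2% where 20 did. Members without overlap ranged from 2 to 6, 7 to 12 and 5 to 19, and the share of all genes moved too. Without 2-week replicate 4, the 6 were 14% of tested members, where 14.7% of all genes did not overlap. The 19, also without that library, were 44.2%, where 19% of all genes did not. The count of 12 came without control replicate 1 (9.22% of all genes) and without 5-week replicate 2 (8.99%).

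The log2 differences of the members named or counted by an unadjusted p turned sign in 40 of 2145 recomputed values, spread over 19 differences, and the cause was not tested. With each library left out in turn, the differences of 2 weeks from 0 weeks ranged from -0.27 to 0.0421 for Ccl5, -0.18 to 0.11 for Ccr2, -0.0658 to 0.0753 for Cxcl12, -1.31 to 0.10 for Cxcl13, -0.0517 to 0.17 for Cxcl15, -0.0792 to 0.0393 for Cxcl16 and -0.0492 to 0.41 for Cxcr5. Those of 5 weeks from 0 weeks ranged from -0.0502 to 0.31 for Ccl6, -0.0047 to 0.13 for Cx3cl1, -0.12 to 0.27 for Cxcl1, -1.15 to 0.27 for Cxcl13, -0.0047 to 0.25 for Cxcr3 and -0.0095 to 0.39 for Pf4. Those of 5 weeks from 2 weeks ranged from -0.0555 to 0.0493 for Ackr2, -0.0152 to 0.19 for Ccl2, -0.0247 to 0.23 for Ccl22 and -0.12 to 0.016 for Cx3cl1. Without the 3 libraries that stand apart, Ccl9 (0.0569) and Cxcl13 (0.15) turned at 2 weeks against 0 weeks, Cxcl13 (0.20) at 5 weeks against 0 weeks, and Ackr2 (0.0845) and Cx3cl1 (0.0307) at 5 weeks against 2 weeks. Library weights turned Cxcl15 (-0.03) and Cxcl9 (-0.21) at 2 weeks, Ccl6 (-0.0242) and Pf4 (-0.0766) at 5 weeks against 0 weeks, and Ackr2 (0.0556) at 5 weeks against 2 weeks. Median-of-ratios scaling turned Cxcl12 (-0.0011) at 2 weeks, and a pseudocount of 5 turned Cxcl1 (-0.0089) at 5 weeks against 0 weeks.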
